A study of Homo sapiens with 6 samples.

Results

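The genes described here build the entrance of the secretory pathway: they carry proteins into the endoplasmic reticulum (ER), attach the first sugars, and form the vesicle coats that shuttle between the ER and the Golgi. They were taken by name from the gene table as all SEC-numbered genes, the coatomer subunits, the p24 (TMED) family, and the genes of the signal recognition particle (SRP) and its receptor, translocon-associated protein (TRAP) complex, signal peptidase and oligosaccharyltransferase, with SAR1A, SAR1B, the KDEL receptors and LMAN1. The rule found 72 of the 16362 genes in the table, and 67 of them had enough counts to be tested, as did 9848 genes in all. MDA-MB-231 cells, from an established human line of triple-negative breast cancer, had been kept for 24 h with CTI-2 (3 libraries) or without an agent (3 control libraries). CTI-2 is a code name, and the sources used here give neither its dose nor a vehicle for the controls. They also do not say whether the libraries of a group came from separate cultures, so p-values may measure technical spread only. Each library was made from total RNA with the Oxford Nanopore cDNA-PCR kit, whose reads span cDNA molecules.

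Proteins bound for secretion or membranes are recognised by SRP as they leave the ribosome, and SRP docks on its receptor at the ER. They pass through the Sec61 channel, lose their signal peptide to signal peptidase and receive N-linked sugars from oligosaccharyltransferase. COPII vesicles, started by the SAR1 GTPases and loaded by SEC24 cargo adaptors, leave the ER, and COPI vesicles bring escaped ER residents back with the help of KDEL receptors and p24 proteins. Many of these genes are known targets of the unfolded protein response in other settings.

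Library totals were 2208261 to 3153469 counts after CTI-2 and 2349758 to 3929532 counts in controls, so 3 counts correspond to 0.763 to 1.36 CPM (counts scaled to a library total of 1000000). Control 2 stood apart from controls 1 and 3 on the first principal component and in its short transcripts, but not by every measure. Chi-square values for each degree of freedom were 3.92 between controls 1 and 3 and 3.94 between controls 1 and 2. Between controls 2 and 3 the value was 6.76. On the first principal component, which held 43.4% of the variance, the CTI-2 libraries lay between -25.1 and -13.7, control 2 at 8.16, and controls 1 and 3 both at 23.1. In the shortest length quintile of transcripts, the median log2 deviation from a gene's mean was 0.072 to 0.075 in CTI-2 libraries, against 0.080 in control 2, -0.091 in control 1 and -0.18 in control 3. All 8 genes listed as commonly expressed in MDA-MB-231 had counts, but VIM, usually abundant in this line, reached only 14.5 to 16.8 CPM after CTI-2 and 18.3 to 18.9 CPM in controls. This list summed to 586 to 663 CPM after CTI-2 and 725 to 822 CPM in controls. The only listed gene called in it was TGFBI, which was lower, at 115 ± 33.5 CPM after CTI-2 and 264 ± 40.7 CPM in controls (edgeR adjusted p = 0.00658). CD44 lay the other way without a call, at 180 ± 10.3 CPM after CTI-2 and 145 ± 14.4 CPM in controls, and AXL at 6.02 ± 1.33 CPM and 3.34 ± 0.313 CPM, both higher in every CTI-2 library than in any control. VIM and PLAU (43.2 ± 7.49 CPM after CTI-2 and 58.9 ± 3.04 CPM in controls) were lower in every CTI-2 library, also without a call. Of 10 listed luminal and epithelial genes 9 were analysed here: ESR1, CDH1, GATA3 and ERBB3 had at most 2 counts in any library, and the list summed to 329 to 355 CPM after CTI-2 and 309 to 323 CPM in controls, mostly KRT18 and KRT8. Whether these marker levels have a part in the results was not tested. In such bulk RNA, fewer cells with a transcript and less of it per cell cannot be told apart.

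After CTI-2, 4 of the 72 genes rose and 4 fell. The risers were SPCS2, a signal peptidase subunit gene (1.41-fold), SAR1A (1.39-fold), SRP9 (1.35-fold) and SRPRB, the membrane-anchored subunit of the SRP receptor (1.27-fold). The genes that fell were the COPII cargo adaptors SEC24D (2.35-fold) and SEC24A (1.61-fold), the p24 gene TMED1 (1.44-fold) and SEC61A1, the channel-forming Sec61 subunit (1.27-fold). A gene was called where its Benjamini-Hochberg adjusted p, over all tested genes in edgeR's quasi-likelihood test, was under 0.05. This test called 3.39% of all tested genes higher and 4.64% lower (8.03% in either direction). The 4 higher and 4 lower calls among 67 tested genes thus lay near the background in both directions. The median log2 fold change of the 67 genes was 0.14, against -0.011 for all tested genes, and 45 were positive and 22 negative. At an unadjusted p of 0.05, 22 of the 67 genes passed, against 23.9% of all tested genes.

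**Figure D1:**
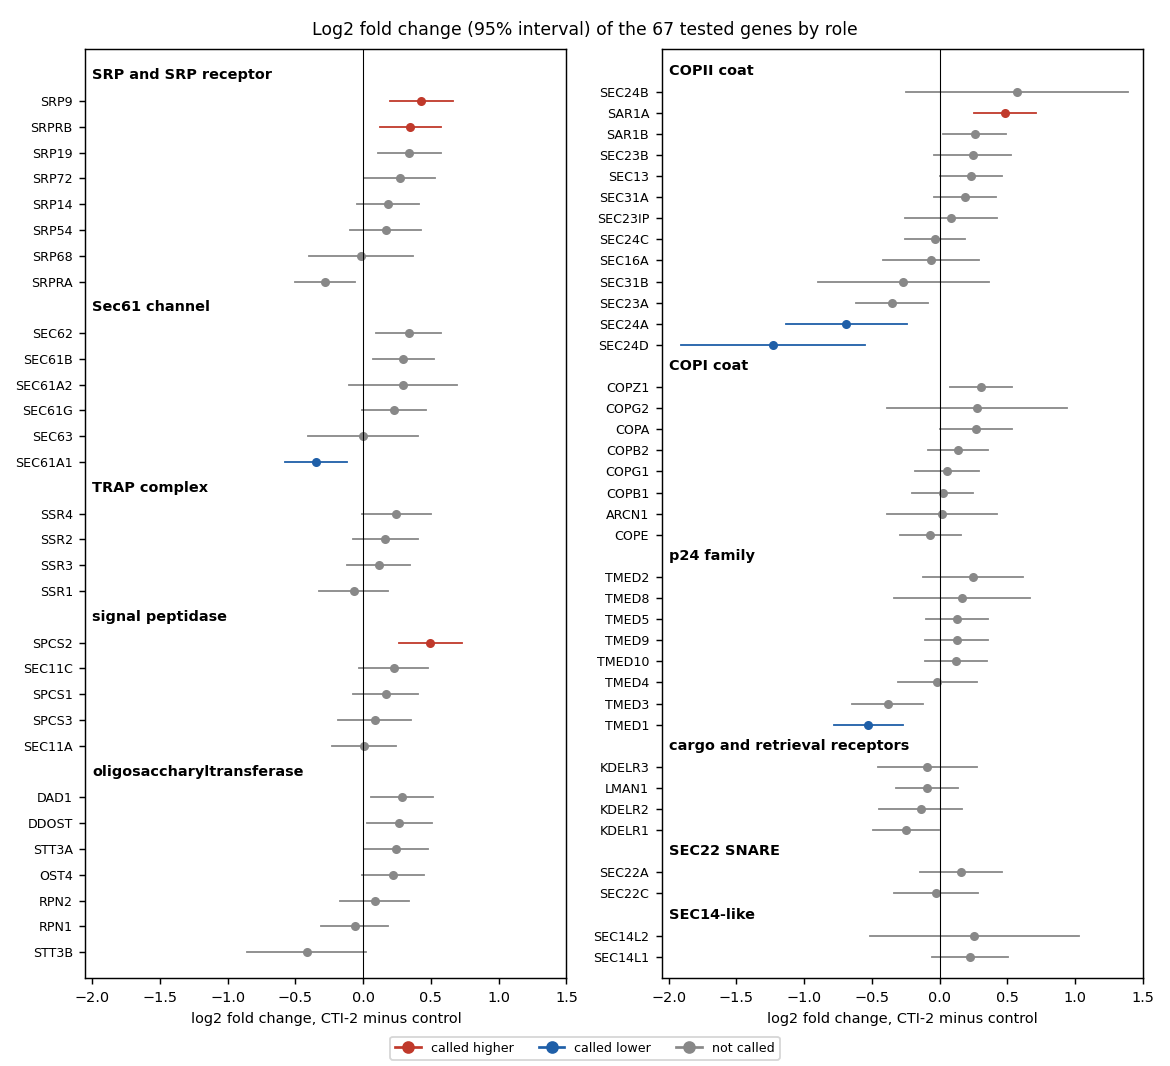
Log2 fold change (CTI-2 minus control, horizontal axis) with its 95% interval for the 67 tested genes, grouped by role. Red genes were called higher, blue genes lower, and grey genes were not called; most groups hold genes on both sides of 0, as with SRPRB (0.35) and SRPRA (-0.28).

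Beside the calls, 15 of the 67 genes had CPM that were higher in every CTI-2 library than in every control, and 7 had CPM that were lower in every CTI-2 library, where 13.2% and 15.6% of all tested genes did so. The median deviation of the 67 genes from their mean over libraries was 0.066, 0.080 and 0.087 in CTI-2 libraries 1 to 3, against -0.14, 0.038 and -0.10 in controls 1 to 3, on the log2 scale. Without control 2, the calls became 21 higher and 6 lower, beside 9.57% and 6.53% of all genes, and the median became 0.21. Of the 21 genes then called higher, 18 had annotated transcripts shorter than 2485 bases, the median of tested genes, as had 39 of the 67 tested genes described here. When the trend of each library with transcript length was taken out, 3 genes were called higher and 4 lower, beside 3.68% and 4.38% of all genes, and the median was 0.086. The part of control 2 and of transcript length in the other results was not tested beyond these values. DESeq2 called 3 genes higher and 1 lower (2.93% and 3.58% of all genes), limma-voom 3 and 2 (3.03% and 4.24%), and counts thinned to the smallest library 4 and 2 (3.55% and 5.06%). The split was 3 higher and 5 lower with limma on log2(CPM + 1) (2.63% and 4.77% of all genes) and with each library's GC trend taken out (3.09% and 4.21%).

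**Figure D2:**
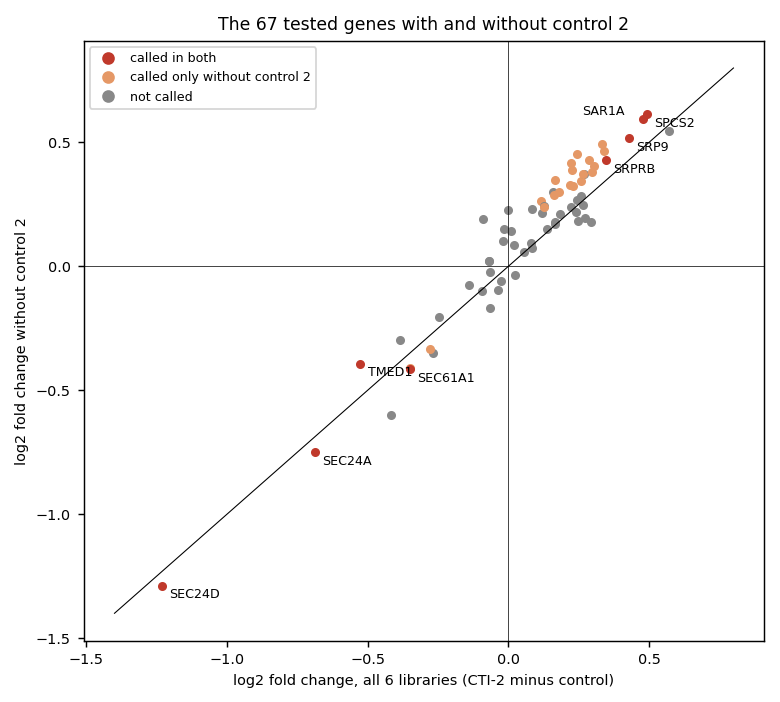
Log2 fold change of the 67 tested genes (CTI-2 minus control) with all 6 libraries (horizontal) and without control 2 (vertical); the line marks equal values. The 8 genes called with all libraries were also called without control 2 (red), and 19 more genes were called there (orange), mostly above the line.

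One short promoter element recurred among these genes. TGACGTGG, the core of an element bound by the unfolded protein response factors ATF6 and XBP1, was searched on both strands in the 250 bases before RefSeq gene starts (GRCh38.p14). It was present for 8 of the 64 genes with such a window (12.5%), against 0.78% of all 27305 genes with a window and 1.05% of the 7402 tested genes with one. The 8 genes were COPB1, COPB2, KDELR3, SEC24A, SEC62, SRP19, SSR3 and SSR4. The longer elements ERSE and ERSE-II, also linked to that response, were found in 0 of the 64, and in 0.0916% and 0.0659% of all genes with a window. Both end in CCACG, with which CCACGTCA begins, so the elements can overlap, and a match is one of letters only. Windows of 4 of the 8 genes are shown because these genes differed in direction: SEC24A fell, while SRP19 (log2 fold change 0.34, edgeR adjusted p = 0.0576), SEC62 (0.33, adjusted p = 0.0706) and SSR4 (0.24, adjusted p = 0.227) had positive values without a call. Capitals mark TGACGTGG or its reverse complement CCACGTCA, and each sequence runs 5′ to 3′ on the gene's own strand.
SEC24A: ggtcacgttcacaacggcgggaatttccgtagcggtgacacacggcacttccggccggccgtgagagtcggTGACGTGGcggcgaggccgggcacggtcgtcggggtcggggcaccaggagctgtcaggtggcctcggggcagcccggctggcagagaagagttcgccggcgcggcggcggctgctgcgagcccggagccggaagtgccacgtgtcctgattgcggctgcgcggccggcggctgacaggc
SRP19: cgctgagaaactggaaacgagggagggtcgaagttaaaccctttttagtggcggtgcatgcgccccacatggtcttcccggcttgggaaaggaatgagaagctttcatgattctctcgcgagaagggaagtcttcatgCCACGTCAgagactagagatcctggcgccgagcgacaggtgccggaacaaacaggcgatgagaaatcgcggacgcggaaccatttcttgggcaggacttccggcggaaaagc
SEC62: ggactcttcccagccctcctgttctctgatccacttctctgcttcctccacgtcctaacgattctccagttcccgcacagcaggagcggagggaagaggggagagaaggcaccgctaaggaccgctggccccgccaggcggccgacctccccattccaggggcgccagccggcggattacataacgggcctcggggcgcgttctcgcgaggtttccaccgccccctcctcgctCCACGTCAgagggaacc
SSR4: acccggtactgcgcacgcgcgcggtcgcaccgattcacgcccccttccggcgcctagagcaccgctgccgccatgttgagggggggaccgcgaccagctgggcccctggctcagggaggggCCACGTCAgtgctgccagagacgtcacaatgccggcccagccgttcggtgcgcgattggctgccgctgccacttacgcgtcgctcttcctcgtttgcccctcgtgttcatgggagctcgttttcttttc
The windows lie at chr5:134648535-134648784 (SEC24A), chr5:112861037-112861286 (SRP19), chr3:169966557-169966806 (SEC62) and chrX:153794418-153794667 (SSR4), all on the plus strand. For SRP19, SEC62 and SSR4, and also for SSR3, KDELR3, COPB1 and COPB2, the RefSeq start lies inside the GENCODE 29 span of the gene. The SSR3 and SSR4 windows lie wholly inside that span, and the matches of SEC62 and COPB1 also lie inside it. None of these matches is upstream of the whole gene. Across the 8 tested genes with the element the median log2 fold change was 0.13, from -0.69 to 0.34, with 0 called higher and 1 lower. Across the 51 tested genes with a window but without it the median was 0.17 and the range -0.53 to 0.57, with 4 higher and 2 lower.

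Of the 8 genes of SRP and its receptor, 2 rose and 6 did not pass. SRP9 (chromosome 1, 225777813 to 225790466, plus strand, GENCODE 29 on GRCh38), whose protein pairs with SRP14 in the domain that slows translation, had 368, 397 and 403 CPM after CTI-2, against 324, 311 and 259 CPM in controls. All CTI-2 values lay above all controls (389 ± 18.6 CPM and 298 ± 34.1 CPM, SD of 3 libraries), with a log2 fold change of 0.43 ± 0.11 (SE) and an edgeR adjusted p of 0.015. SRP9 has a short annotated transcript (540 bases), and its change was 0.25 with an adjusted p of 0.0657 once the length trend was removed. The call was also lost without CTI-2 library 2 or 3 or without control 3, with adjusted p of 0.0745, 0.0928 and 0.0647. With the length trend removed and replicate number as a block, the change was 0.25 with an adjusted p of 0.112. In all, SRP9 kept its call in 14 of 19 alternatives. Its partner SRP14 had 519, 594 and 514 CPM after CTI-2, against 473, 534 and 474 CPM in controls, ranges that overlap (log2 fold change 0.18, adjusted p = 0.341). SRP19, which helps SRP54 onto the SRP RNA, had 201, 186 and 211 CPM after CTI-2, against 165, 176 and 144 CPM in controls, without overlap. SRP72 (0.27) and SRP54, the signal-binding GTPase gene (0.17), had positive values that did not pass.

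The SRP receptor subunits lay on opposite sides of 0. SRPRB (chromosome 3, 133784033 to 133825772, plus strand, GENCODE 29 on GRCh38) had 174, 183 and 173 CPM after CTI-2, against 129, 148 and 154 CPM in controls, without overlap. Its log2 fold change was 0.35 ± 0.11 (SE; edgeR adjusted p = 0.0462). SRPRA, the subunit that binds SRP54, had 177, 171 and 174 CPM after CTI-2, against 217, 189 and 253 CPM in controls (-0.28, SE 0.11, adjusted p = 0.105), and its groups did not overlap either. SRPRB took 49.6, 51.7 and 49.8% of the pair's reads after CTI-2, against 37.2, 43.9 and 37.8% in controls, a difference of 10.8 percentage points. Its exact permutation p was 0.1 (two-sided), and no smaller p is possible with 3 libraries in each group. The pair was chosen after its values were seen. The annotated transcripts of these genes are of like length (2827 and 2761 bases for SRPRB and SRPRA). SRPRB kept its call in 6 of 19 alternatives and lost it in DESeq2 and limma-voom and without any 1 CTI-2 library or control 1, with adjusted p from 0.00632 to 0.262. Both genes overlap other counted genes (SRPRB with TF and RAB6B, SRPRA with FOXRED1 and FAM118B), and the sources used here do not say whether reads were counted by strand.

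In the Sec61 channel 1 of 6 genes fell and 5 did not pass. SEC61A1 had 139, 143 and 153 CPM after CTI-2, against 188, 163 and 226 CPM in controls, with no overlap. Its means were 145 ± 7.35 CPM after CTI-2 and 192 ± 31.9 CPM in controls, and its log2 fold change was -0.35 ± 0.11 (SE; edgeR adjusted p = 0.0463). The call was kept without control 2 but lost when any other library was left out, with adjusted p of up to 0.182. In all it was kept in 8 of 19 alternatives, and it was also lost in DESeq2 (0.0835), limma-voom (0.0653), thinned counts (0.0575) and without a low-count filter (0.0746). The small subunit genes lay the other way. SEC61B had 467, 492 and 496 CPM after CTI-2, against 433, 424 and 365 CPM in controls (0.30, adjusted p = 0.0933), and SEC61G stood at 0.23 on the log2 scale (adjusted p = 0.238). SEC61A1 took 22.5 to 23.6% of the reads of SEC61A1 and SEC61B after CTI-2, against 27.7 to 38.2% in controls (exact permutation p = 0.1, a pair chosen after its values were seen). Their annotated transcripts differ in length, at 3238 bases for SEC61A1 and 566 bases for SEC61B. SEC62, which assists transport after translation, had 330 ± 8.06 CPM after CTI-2 and 269 ± 38.7 CPM in controls without overlap. SEC61A2, the other alpha subunit gene, stood at 0.29 (adjusted p = 0.374). SEC61A1 overlaps MGLL and RUVBL1 on the opposite strand, so its counts are uncertain.

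Signal peptidase gave the riser with the lowest adjusted p. SPCS2 had 731, 678 and 652 CPM after CTI-2, against 457, 546 and 507 CPM in controls, and every CTI-2 library exceeded every control. Its means were 687 ± 40.2 CPM after CTI-2 and 503 ± 44.9 CPM in controls (SD of 3 libraries), a log2 fold change of 0.49 ± 0.11 (SE) with an edgeR adjusted p of 0.00568. The call held in 17 of 19 alternatives and was lost without CTI-2 library 1 (adjusted p = 0.0587) or control 1 (adjusted p = 0.0686). The catalytic subunit gene SEC11A had 657, 659.9 and 614 CPM after CTI-2, against 578, 728 and 675 CPM in controls, which overlap, with a log2 fold change of 0.0080 (95% interval -0.23 to 0.24) whose sign turned with the scaling. SEC11C, the alternative catalytic subunit gene, had 0.22 (adjusted p = 0.281) and SPCS1 had 0.17 (adjusted p = 0.409). SEC11A took 87.1% ± 0.446 of the SEC11A and SEC11C reads after CTI-2 and 88.8% ± 0.887 in controls, without overlap (exact permutation p = 0.1, adjusted p = 0.2 over 8 pairs).

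No gene of the TRAP complex or of oligosaccharyltransferase passed. TRAP assists the Sec61 channel, and its SSR2 gene had 809, 765 and 726 CPM after CTI-2, against 603, 771 and 749 CPM in controls, where control 1 alone was low (log2 fold change 0.16, edgeR adjusted p = 0.425). SSR4 had 596, 600 and 538 CPM after CTI-2, against 440, 597 and 468 CPM in controls, where control 2 lay within the CTI-2 range. In oligosaccharyltransferase RPN2, a ribophorin subunit gene, had 4359, 3875 and 3995 CPM after CTI-2, against 3628, 3664 and 4688 CPM in controls, and its groups overlapped (0.084, adjusted p = 0.732). DAD1 (0.29), DDOST (0.27), STT3A (0.24) and OST4 (0.22) had positive values, and DAD1 and OST4 did not overlap between groups. The catalytic subunit STT3A acts with the translocon and STT3B on sites that were skipped. STT3B had 19.3, 16.2 and 10.4 CPM after CTI-2, against 23.1, 15.8 and 28.1 CPM in controls (-0.42, adjusted p = 0.236). STT3A took 93.1, 93.6 and 95.9% of the STT3A and STT3B reads after CTI-2, against 88.9, 92.5 and 90.6% in controls (exact permutation p = 0.1, adjusted p = 0.2 over 8 pairs). STT3A overlaps CHEK1 on the same strand, and SRP19, SEC61A2, SSR4 and KDELR3 also overlap other counted genes, so their counts are uncertain. The same holds for further genes described here. Among them SEC31B, SEC22A and KDELR2 overlap AL133352.1, PDIA5 and DAGLB on the same strand, and COPA overlaps NCSTN on the opposite strand.

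In the COPII coat 1 gene rose, 2 fell and 10 did not pass. SAR1A (chromosome 10, 70147289 to 70170523, minus strand, GENCODE 29 on GRCh38), the GTPase gene that starts coat assembly, had 169, 166 and 189 CPM after CTI-2, against 122, 138 and 126 CPM in controls, a log2 fold change of 0.48 ± 0.11 (SE; edgeR adjusted p = 0.00658). The groups did not overlap, and the call was lost without CTI-2 library 3 (adjusted p = 0.0644) or control 1 (adjusted p = 0.0535). Its paralogue SAR1B had 144, 175 and 157 CPM after CTI-2, against 126, 142 and 143 CPM in controls (0.26, adjusted p = 0.155). SAR1A held 54.1, 48.8 and 54.7% of the pair's reads after CTI-2, against 49.4, 49.4 and 46.8% in controls, which overlap (exact permutation p = 0.3, adjusted p = 0.48 over 8 pairs).

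Of the 4 SEC24 cargo adaptor paralogues 2 fell and 2 did not pass. SEC24D (chromosome 4, 118722823 to 118838683, minus strand, GENCODE 29 on GRCh38) had 3.17, 6.07 and 1.81 CPM after CTI-2, against 11.6, 8.14 and 8.51 CPM in controls, with no overlap. These values rest on 10, 18 and 4 reads after CTI-2, against 30, 32 and 20 reads in controls (a log2 fold change of -1.23 ± 0.34, SE; edgeR adjusted p = 0.0182). Leaving out CTI-2 library 1, CTI-2 library 3 or control 1 ended the call, with adjusted p of up to 0.1, as did thinning all libraries to the smallest one (0.0625), and DESeq2 gave SEC24D no adjusted p. SEC24A (chromosome 5, 134648789 to 134727823, plus strand, GENCODE 29 on GRCh38) had 11.1, 10.8 and 9.51 CPM after CTI-2, against 16.2, 15.3 and 22.1 CPM in controls (-0.69, SE 0.22, adjusted p = 0.0462). Its call was kept in 8 of 19 alternatives, with adjusted p from 0.0211 to 0.183, and among the fits that leave out 1 library it was kept only without control 2. SEC24A begins inside the annotated span of SAR1B on the opposite strand, so reads near its start are uncertain. SEC24B, on 6 to 18 reads per library, had 3.49, 6.07 and 3.62 CPM after CTI-2, against 2.31, 2.80 and 4.26 CPM in controls, which overlap (0.57, 95% interval -0.25 to 1.39). SEC24C, at 170 ± 8.70 CPM after CTI-2 and 182 ± 23.7 CPM in controls, did not pass. SEC24C took 97.9% ± 1.14 of the SEC24C and SEC24D reads after CTI-2 and 95.1% ± 0.575 in controls, without overlap (exact permutation p = 0.1, adjusted p = 0.2 over 8 pairs).

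**Figure D3:**
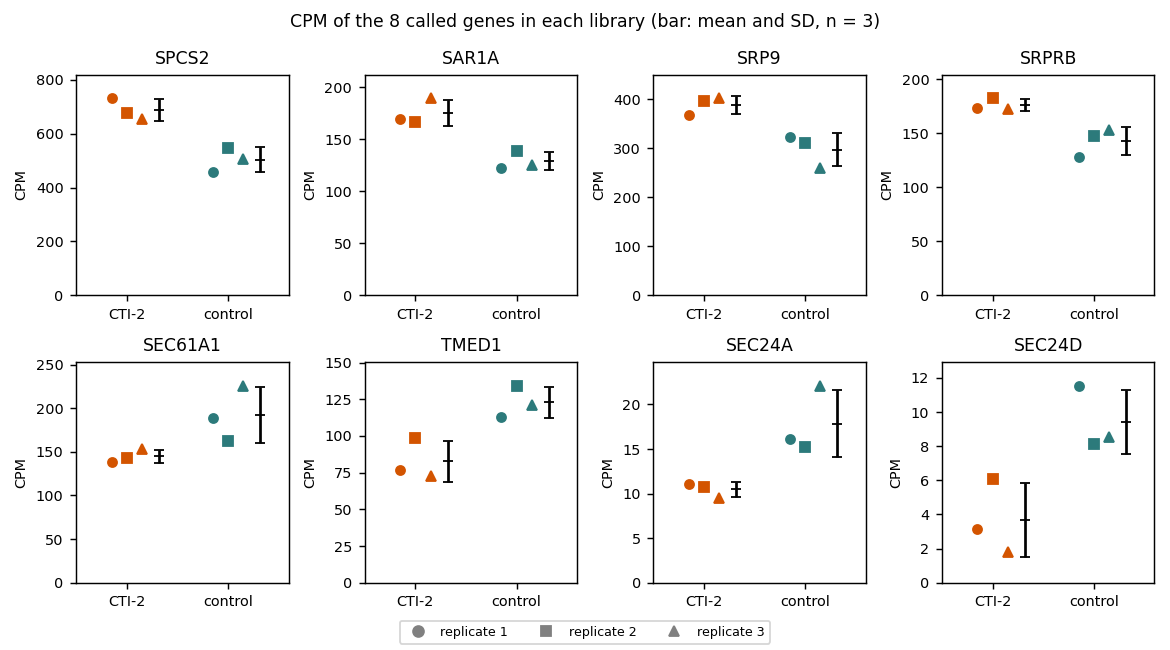
CPM of the 8 called genes in each library, with CTI-2 libraries left and controls right. Symbols mark the replicate number, which the labels do not say pairs samples, and bars give mean and SD. No gene overlaps between the groups of libraries, and SEC24D reaches at most 6.07 CPM after CTI-2, against at least 8.14 CPM in controls.

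SEC23, which joins SEC24 in the inner coat layer and stimulates SAR1, also had paralogues on opposite sides of 0. SEC23A had 46.0, 43.1 and 46.6 CPM after CTI-2, against 65.5, 51.7 and 63.4 CPM in controls, and SEC23B had 43.1, 42.8 and 48.9 CPM after CTI-2, against 38.9, 37.7 and 40.9 CPM in controls. Neither gene passed (log2 fold changes -0.35 and 0.24, edgeR adjusted p = 0.0934 and 0.295), yet neither overlapped between groups. SEC23A was called once the length trend was removed (-0.47, adjusted p = 0.0328) or without control 2 (-0.41, adjusted p = 0.0403). The length used there was a median over annotated transcripts, 907 bases for SEC23A and 3263.5 bases for SEC23B. Whether 907 bases fits the SEC23A transcripts read here was not tested, so little weight rests on the call with the length trend removed. SEC23A took 51.6, 50.2 and 48.8% of the pair's reads after CTI-2, against 62.7, 57.8 and 60.8% in controls, a difference of -10.3 percentage points that was the largest of the 8 paralogue pairs compared (exact permutation p = 0.1, adjusted p = 0.2 over 8 pairs). In the outer layer SEC13 had 629.8, 612 and 666 CPM after CTI-2, against 582, 591 and 507 CPM in controls, without overlap or a call (0.23, adjusted p = 0.209), and SEC31A stood at 0.18. SEC31A was steady within groups, at 99.7 ± 0.647 CPM after CTI-2 and 90.8 ± 2.91 CPM in controls. SEC31B, with 4.44 to 7.75 CPM after CTI-2 and 6.11 to 8.86 CPM in controls, had -0.27.

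**Figure D4:**
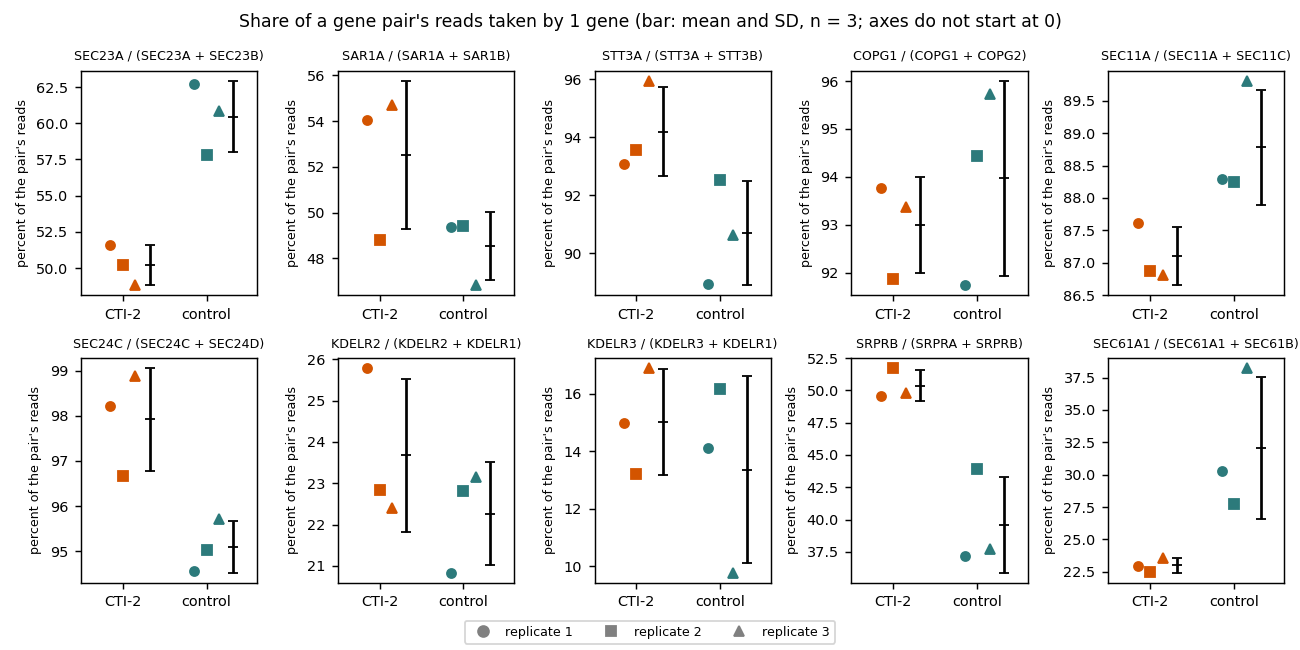
Share of a pair's reads (percent, vertical axes not starting at 0) taken by the gene named first, for 8 paralogue pairs and 2 subunit pairs, CTI-2 left and control right, with mean and SD of 3 libraries. The SEC23A, STT3A, SEC11A, SEC24C, SRPRB and SEC61A1 shares do not overlap between groups, and the SAR1A, COPG1, KDELR2 and KDELR3 shares do.

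COPI carries proteins back to the ER, and none of the 8 tested genes of its coat passed. COPZ1, the zeta subunit gene, had 452, 446 and 506 CPM after CTI-2, against 406, 414 and 351 CPM in controls, without overlap (log2 fold change 0.31, edgeR adjusted p = 0.088). COPA, the alpha subunit gene, had 0.27 (adjusted p = 0.205), COPG2 had 0.27 on 9 to 21 reads, and COPB2 had 0.14 (adjusted p = 0.466). COPB1 shares its span with another counted gene on the same strand, AC018523.2, which held 501 to 701 reads in CTI-2 libraries and 700 to 940 in controls, more than COPB1 itself, so its level is uncertain.

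Of the p24 proteins, which cycle between the ER and the Golgi and help select cargo, 1 of 8 tested genes fell and 7 did not pass. TMED1 (chromosome 19, 10832438 to 10836318, minus strand, GENCODE 29 on GRCh38) had 76.7, 98.4 and 72.9 CPM after CTI-2, against 113, 134 and 121 CPM in controls, a log2 fold change of -0.53 ± 0.13 (SE; edgeR adjusted p = 0.00757). All CTI-2 libraries lay below all controls, and the call held in 18 of 19 alternatives, the exception being the fit without CTI-2 library 3 (adjusted p = 0.0645). With the length trend removed TMED1 kept its call, although its annotated transcript is short (809 bases). It overlaps DNM2 on the opposite strand. TMED3 had 191, 258 and 291 CPM after CTI-2, against 305, 347 and 342 CPM in controls (-0.38, adjusted p = 0.0585), no overlap either, and passed in 8 of 19 alternatives. TMED9 had 900, 937 and 945 CPM after CTI-2, against 777, 945 and 911 CPM in controls (0.13, adjusted p = 0.544). TMED2 stood at 0.25 and TMED5 at 0.13 without a call, and TMED8, at 0.16, turned to -0.065 in thinned counts. TMED1 took 7.85, 9.51 and 7.16% of the TMED1 and TMED9 reads after CTI-2, against 12.7, 12.5 and 11.7% in controls (exact permutation p = 0.1, a pair chosen after its values were seen).

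None of the 4 cargo and retrieval receptor genes passed. With a library left out, KDELR3 ranged from -0.23 to 0.19 and LMAN1 from -0.17 to 0.00016 on the log2 scale, so no direction is read for either. KDELR1, which returns ER chaperones from the Golgi, had 135, 166 and 138 CPM after CTI-2, against 152, 177 and 212 CPM in controls (log2 fold change -0.25, edgeR adjusted p = 0.202). KDELR2 had -0.14 (adjusted p = 0.615). LMAN1, a lectin that carries glycoproteins out of the ER, had 194, 181 and 177 CPM after CTI-2, against 185, 187 and 240 CPM in controls, where control 3 alone was high (-0.093). The SEC22 family gene SEC22A had 37.7, 40.1 and 42.6 CPM after CTI-2, against 31.6, 40.2 and 38.3 CPM in controls, which overlap (0.16, adjusted p = 0.557). SEC14L1 and SEC14L2, which the naming rule took along, encode lipid-binding proteins outside this pathway and did not pass (0.22 and 0.26). SEC14L1 had 54.5, 48.5 and 43.9 CPM after CTI-2, against 42.4, 41.7 and 47.2 CPM in controls, which overlap.

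In 17 further tested genes the log2 fold change lay between -0.090 and 0.12 with edgeR adjusted p of 0.553 to 0.996, and no direction is read from them. They were ARCN1, COPB1, COPE, COPG1, SEC16A, SEC23IP, SEC24C, SEC22C, SRP68, SEC63, SSR1, SSR3, KDELR3, RPN1, TMED10, TMED4 and SPCS3. The remaining 5 genes were too low to test. COPZ2 had 2 to 5 reads after CTI-2 and 3 to 6 in controls, TMED7 had 2 to 8 and 4 to 6, and TMED6 0 to 2 and 0 to 4. SEC14L4 had at most 1 read after CTI-2 and at most 2 in controls. SEC22B, a SNARE gene of ER-to-Golgi transport with near-identical copies nearby in the genome, had 1, 1 and 0 reads after CTI-2 and 0 in each control, which allows up to 1.16, 0.763 and 1.28 CPM in controls 1 to 3. The sources used here do not say how reads that match such copies were counted.

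Added up, the 72 genes took 1.77, 1.74 and 1.73% of all counts after CTI-2, against 1.54, 1.68 and 1.72% in controls (exact permutation p = 0.1). The difference was 0.10 percentage points, and 0.0462 without control 1, whose share was the lowest. Without overlap between groups, the share was higher after CTI-2 for SRP and its receptor (0.164% ± 0.00426, against 0.146% ± 0.00377 in controls), the Sec61 channel (0.146% ± 0.00184, against 0.131% ± 0.00699) and the COPII coat (0.141% ± 0.00261, against 0.129% ± 0.00361). The SEC14-like genes, outside this pathway, did not overlap either (0.00539% ± 0.000428, against 0.00480% ± 0.000218). Each of these 4 groups had an exact permutation p of 0.1 and an adjusted p of 0.275 over 11 role groups. Abundant genes weigh most in a share, and no length trend was removed from shares. Log2 fold changes were positive and negative for 6 and 2 tested genes of SRP and its receptor. The Sec61 channel had 4 and 2, and the COPII coat 7 and 6. In that coat SEC13 alone had 636 ± 27.7 CPM after CTI-2 and 560 ± 46.2 CPM in controls. Oligosaccharyltransferase took 0.570% ± 0.0260 after CTI-2 and 0.549% ± 0.0698 in controls, most of it RPN2, and the p24 family 0.194% ± 0.00409 and 0.199% ± 0.0172 (exact permutation p = 0.6 and 0.8).

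Neighbouring genes of the same pathway, 95 listed with earlier results of these data known, gave 5 higher and 4 lower calls among 91 tested, beside the 3.39% and 4.64% of all tested genes, with a median log2 fold change of 0.080. Without control 2 these counts were 14 higher and 6 lower, beside 9.57% and 6.53% of all genes. Of 22 tested genes of translocation and membrane insertion 2 rose and 2 fell. TMCO1, part of a translocon for multipass proteins, had 595, 545 and 546 CPM after CTI-2, against 351, 473 and 402 CPM in controls (0.50, edgeR adjusted p = 0.00782). NCLN, from an associated complex, had 81.5, 69.1 and 61.6 CPM after CTI-2, against 124, 89.8 and 127 CPM in controls (-0.61, adjusted p = 0.00225), and BAG6, a chaperone of tail-anchored proteins, fell by 0.44. EMC7, of the ER membrane protein complex, rose by 0.37 (adjusted p = 0.0452) and is named to complete the count. Of 29 tested N-glycosylation genes 2 rose, the oligosaccharyltransferase subunit gene KRTCAP2 (0.45, adjusted p = 0.0132) and ALG5, which makes a sugar donor (0.45, adjusted p = 0.0173), and none fell.

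Of 40 tested genes of ER-to-Golgi traffic 1 rose and 2 fell. SURF4, a cargo receptor of the early secretory pathway, had 137, 163 and 163 CPM after CTI-2, against 215, 225 and 250 CPM in controls, well apart (-0.53, SE 0.11, edgeR adjusted p = 0.00255), and its call held in 19 of 19 alternatives. GBF1, which activates the ARF GTPases that recruit COPI, fell by 0.42 (adjusted p = 0.0256), and the SNARE gene BNIP1 rose by 0.59 (adjusted p = 0.0371). NCLN also kept its call in 19 of 19 alternatives, while GBF1, BAG6, EMC7 and BNIP1 kept theirs in 13, 13, 10 and 9.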

How the data were processed

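Total RNA of 6 MDA-MB-231 samples was made into Oxford Nanopore cDNA-PCR libraries, per the labels' protocols. The authors deposited a table of read counts by gene, unscaled, and a table of CPM. minimap2 is named in the submitters' processing notes, but no source used here names a version, build, annotation or counter, or says whether strand was used. The deposited CPM equalled the counts divided by each library's total and scaled to 1000000. Gene spans were taken from GENCODE 29 (GRCh38), which equalled the deposited span for 80.6% of Ensembl IDs and 58 of the 72 genes. Coordinates are printed for equal spans only. A transcript length is the median over a gene's basic GENCODE 29 transcripts and may differ from that of the transcripts read here.

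edgeR 4.0.16 in R 4.3.3 (TMM scaling, filterByExpr with a minimum count of 10, robust quasi-likelihood test, prior count 2) compared CTI-2 with control over all genes, with Benjamini-Hochberg adjustment. The test was tried on simulated counts of 9884 genes for this comparison, where it recovered 51.5% of genes changed 1.5-fold, 90.3% of those changed 2-fold and 100% of those changed 4-fold, with 12 false calls among 173. The simulation gave all genes the same dispersion, changed only genes with adequate counts, and held no length trend or shift between libraries. Its rates may thus not hold for these libraries or for genes with few reads. Shares of reads were compared by two-sided exact permutation tests, which cannot go below 0.1 with 3 libraries against 3. Pairs of replicates had chi-square values of 1.77 to 6.76 for each degree of freedom, so none was treated as a repeat of another. The floor of 3 counts covers counting error only, since PCR copies are not independent molecules.

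Alternatives were DESeq2 1.42.0, limma 3.58.1 (voom, and log2(CPM) with pseudocounts of 1 and 0.5), other scalings and filters, each library left out, removal of length or GC trends (lowess span 0.3), thinning, and a replicate block. By rule, values per library were given for called genes among the 72, for the most highly expressed gene of each role and for the 2 uncalled genes with the largest rise and the 2 with the largest fall. Up to 3 called genes per pathway list were named by rule, not all with values per library. Other genes shown per library were chosen after their values were seen. The gene members, the lists and the pairs were chosen with earlier results of these data known, and the 3 subunit pairs after their values were seen. Promoter windows came from RefSeq (GRCh38.p14): 64 of the 72 genes had one, 83 windows in all, of which 79 held the first 20 bases of a GENCODE 29 transcript of the gene.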

Additional observations from a re-analysis of the deposited data

How the results depend on the processing

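Leaving out 1 library at a time gave 1 to 21 of the 67 genes higher and 1 to 6 lower, 113 to 957 of all tested genes higher and 287 to 653 lower, and 1 to 14 of the other pathway genes higher and 3 to 6 lower. The highest of each came without control 2, and the cause was not tested. The median log2 fold change of the 67 genes was 0.088 (without control 1) to 0.21 (without control 2). DESeq2 called 1 of the 67 genes lower, and 210 genes higher and 257 lower in all, over fewer genes with an adjusted p, and limma-voom and thinned counts called 2 of the 67 lower. DESeq2 called 2 other pathway genes lower, beside 3.58% of all genes. The replicate block with the length trend removed called 3 other pathway genes higher and 2 lower. The share over all genes in that fit is not given here, so its counts are not compared with those of the main test.

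Same-numbered libraries did not deviate together (correlations of -0.049, 0.007 and -0.124), and no pairing was used in the main test. The labels do not say whether the numbers mark a shared batch, and 3 libraries in each group cannot settle it. The replicate block gave 4 of the 67 genes higher and 4 lower, gaining TMED3 and losing SEC61A1. In all, it gave 356 genes higher and 586 lower, against 334 and 457 without the block.

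Values near 0 turned sign. LMAN1 was 0.00076 with the length trend removed, 0.0075 with the block as well, and -0.17 to 0.00016 with a library left out. TMED8 was -0.065 in thinned counts. SEC11A was -0.040 with library totals, -0.014 with the stricter filter, -0.031 with limma at both pseudocounts, -0.035 with the GC trend removed, -0.066 with the length trend removed, -0.059 with the block as well, -0.0095 in thinned counts, and -0.090 to 0.14 with a library left out. Share differences (percentage points) ranged with a library left out from 0.0462 to 0.139 for all 72 genes, -6.86e-05 to 0.000512 for SEC22 genes, -0.00370 to 0.0614 for oligosaccharyltransferase, -0.0141 to 0.00218 for the p24 family and -0.13 to 3.07 for KDELR3. Depth limits SEC24A, SEC24B and SEC24D, each at 60 reads or fewer per library.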
